A study of Homo sapiens with 2 samples.

Results

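Expression of 36 genes that act in G2 and mitosis was compared between the lung adenocarcinoma line HCC827 and its gefitinib-resistant derivative HCC827 ZDR3. The genes were chosen by symbol, and 36 of 36 were found among the 20985 genes of the deposited table. HCC827 is an established human line that carries an activating EGFR mutation, and gefitinib inhibits the EGFR tyrosine kinase. The parental group is 1 library of HCC827. The resistant group is 1 library of HCC827 ZDR3, a line from HCC827 cells that were kept in gefitinib from 10 nM upward, with 3-fold steps at intervals of 1 month, until they grew at 1 µM like the parental cells. The labels mention 3 picked colonies without saying how ZDR3 relates to them, and they do not say whether gefitinib was present at harvest or how dense the cultures were. Both libraries are of polyadenylated RNA. With 1 library per group no difference has a replicate check, so no p-value is given, and every interval below covers counting error only.

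Entry into mitosis is driven by CDK1 bound to cyclin B, which is held inactive by phosphorylation until CDC25 phosphatases act. Kinetochores then attach chromosomes to a spindle built by motors and microtubule factors, the spindle checkpoint delays anaphase until attachment is complete, and the anaphase-promoting complex with CDC20 destroys cyclin B. Many of these genes are transcribed together late in the cell cycle, when the MuvB complex with B-MYB (MYBL2) and FOXM1 binds the cell cycle homology region (CHR) of their promoters and NF-Y binds CCAAT boxes. In resting cells the same CHR elements are bound by the repressive DREAM complex. In dividing tumour cells these genes are widely used as a readout of proliferation.

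The promoters of the genes show these shared elements, and 6 are printed to make their arrangement visible. The 3 genes with the lowest and the 1 gene with the highest ratio of resistant to parental level were set by rule. CCNB2 and CDK1 were added after their motifs had been seen. Each sequence is the 250 bases before the RefSeq start in build GRCh38.p14, 5′ to 3′ on the gene's strand, with motif matches on either strand in capitals. The NF-Y box was searched as CCAAT. The cell cycle homology region was searched in its usual form TTTGAA. The palindromic variant of that region, with the letters TTCGAA, counted as well.
TOP2A, chr17:40417897-40418146, minus strand: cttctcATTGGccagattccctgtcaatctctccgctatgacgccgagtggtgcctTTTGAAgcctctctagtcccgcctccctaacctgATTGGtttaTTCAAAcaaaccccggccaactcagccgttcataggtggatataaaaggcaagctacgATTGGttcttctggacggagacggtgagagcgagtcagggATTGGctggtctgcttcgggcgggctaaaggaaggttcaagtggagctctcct
ANLN, chr7:36389612-36389861, plus strand: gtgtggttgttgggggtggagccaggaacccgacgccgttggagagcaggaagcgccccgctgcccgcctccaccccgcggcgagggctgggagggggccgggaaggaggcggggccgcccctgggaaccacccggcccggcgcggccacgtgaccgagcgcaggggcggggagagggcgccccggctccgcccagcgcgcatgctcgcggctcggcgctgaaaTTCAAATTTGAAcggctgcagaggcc
KIF4A, chrX:70289854-70290103, plus strand: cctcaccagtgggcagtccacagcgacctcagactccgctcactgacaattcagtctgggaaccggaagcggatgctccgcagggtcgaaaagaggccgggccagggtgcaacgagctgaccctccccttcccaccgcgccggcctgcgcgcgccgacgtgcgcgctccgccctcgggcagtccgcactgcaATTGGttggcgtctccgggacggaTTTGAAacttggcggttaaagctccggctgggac
NUF2, chr1:163321704-163321953, plus strand: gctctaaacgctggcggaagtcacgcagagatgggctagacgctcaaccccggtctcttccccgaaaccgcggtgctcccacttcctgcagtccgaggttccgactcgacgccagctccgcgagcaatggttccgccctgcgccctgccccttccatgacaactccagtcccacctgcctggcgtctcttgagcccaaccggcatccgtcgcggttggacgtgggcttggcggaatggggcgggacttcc
CCNB2, chr15:59104896-59105145, plus strand: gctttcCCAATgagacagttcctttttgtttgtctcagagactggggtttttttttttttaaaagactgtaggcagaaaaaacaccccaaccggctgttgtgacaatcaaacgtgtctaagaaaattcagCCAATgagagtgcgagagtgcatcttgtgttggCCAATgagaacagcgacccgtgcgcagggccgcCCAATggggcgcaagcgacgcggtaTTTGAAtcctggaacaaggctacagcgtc
CDK1, chr10:60778228-60778477, plus strand: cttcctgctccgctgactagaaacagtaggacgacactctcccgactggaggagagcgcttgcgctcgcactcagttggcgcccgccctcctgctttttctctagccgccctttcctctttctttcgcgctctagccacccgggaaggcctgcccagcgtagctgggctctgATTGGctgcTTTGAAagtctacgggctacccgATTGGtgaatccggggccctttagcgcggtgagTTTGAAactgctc

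The CCNB2 promoter holds 4 CCAAT boxes. The first begins at -244, counted from the start, and the other three at -120, -87 and -54, with 33 bases from each of these to the next. It also has a CHR match 29 bases before the start. KIF4A has the same order in a short form, with an NF-Y box at -58 and a CHR match at -34. ANLN has 2 adjoining CHR matches, at -26 and -20, and no CCAAT box. NUF2 has neither element before its start, and its only CHR match lies at 17, inside the transcribed part. TOP2A has 4 inverted CCAAT boxes, and its CHR matches lie further out, at -194 and -151.

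RefSeq promoters, taken from 250 bases before to 50 after the start, were matched by symbol for 31 of the 36 genes, with 37 promoters in all. AURKA, BIRC5, TPX2, TTK and UBE2C had no entry. Both strands were searched, and matches of the 2 motifs were counted separately, also where they overlap. A CHR match was found in 27 of the 37 promoters (73.0%), against 16.4% of all 35116 RefSeq promoters and 12.1% of the promoters of expressed genes in the table. A CCAAT box was found in 28 of 37 (75.7%), against 34.6% of all promoters. Both elements together were found in 22 of 37 (59.5%), against 6.38% of all. Some genes have several starts whose windows overlap, so the 37 promoters are not independent. By gene, 24 of 31 (77.4%) had a CHR match, against 19.5% of all genes and 15.8% of expressed genes. A CCAAT box was present in 25 of 31 (80.6%), against 39.7% of all and 43.5% of expressed genes. The other G2 and mitosis genes resembled the set, with CHR matches in 46 of 78 promoters (59.0%), CCAAT boxes in 50 (64.1%) and both in 36 (46.2%). Among G1/S and replication genes, CHR matches were found in 6 of 66 promoters (9.09%) and CCAAT boxes in 36 of 66 (54.5%). A match describes the letters only and is not a shown binding site.

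**Figure D1:**
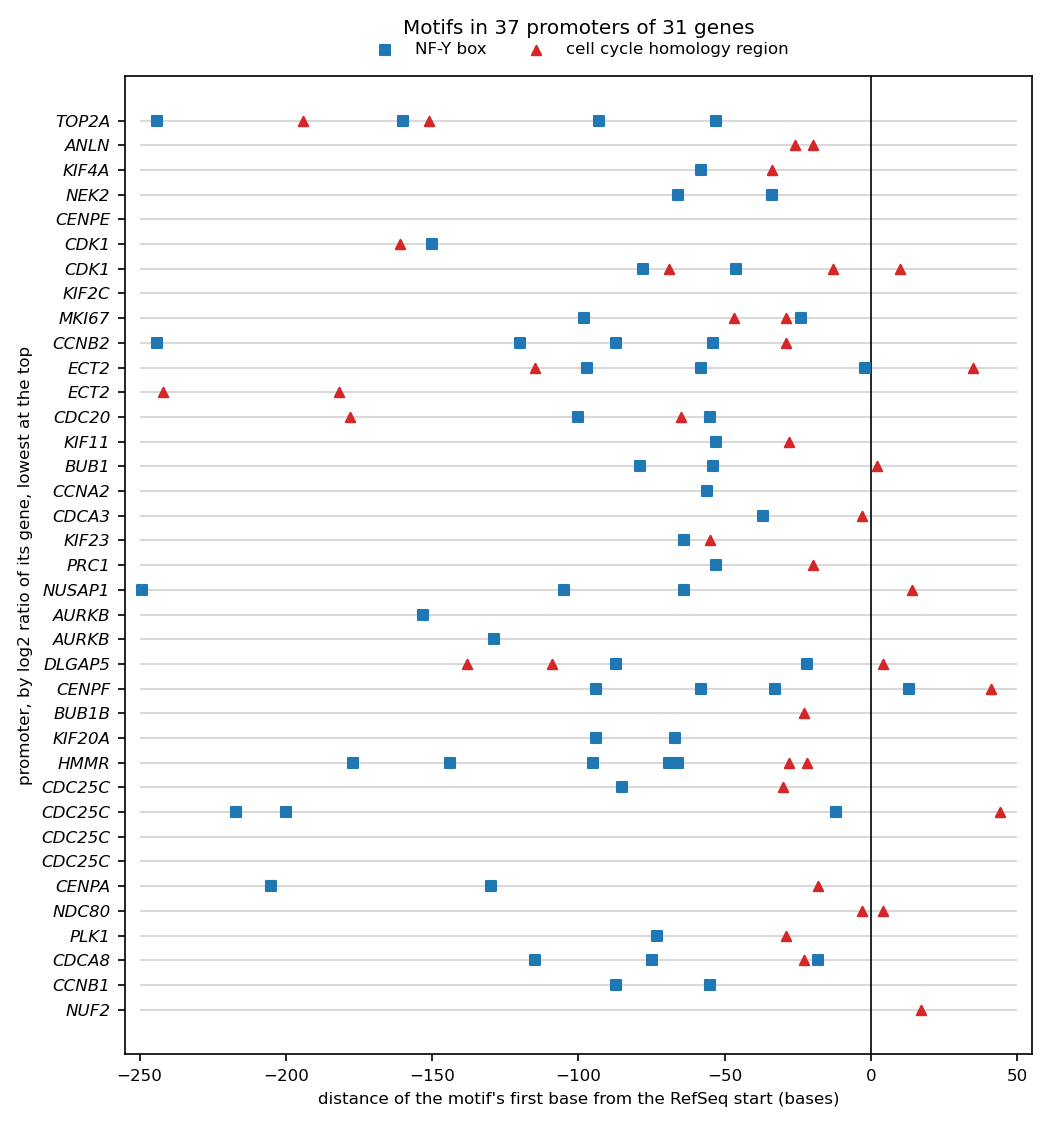
Positions of NF-Y boxes (squares) and CHR matches (triangles) in 37 promoters of 31 genes, by distance in bases from the RefSeq start, with genes of the lowest resistant over parental ratio at the top. Of 39 CHR matches 23 begin between -40 and 20, and of 58 NF-Y boxes 34 begin between -110 and -40. Some elements are counted more than once where windows of several starts overlap. Positions over all promoters were not examined.

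Genes with and without a motif had close medians and overlapping ranges. The 24 genes with a CHR match had a median log2 ratio of -1.08 (-1.88 to -0.43) and the 7 without one -1.20 (-1.68 to -0.58). The 25 genes with a CCAAT box had a median of -1.08 (-1.88 to -0.58) and the 6 without one -1.21 (-1.73 to -0.43).

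A level is a gene's reads times a factor of its library: 143 reads make a level of 1 in HCC827 and 138 reads in ZDR3. Log2 ratios set ZDR3 over HCC827 with 1 added to each level, and a gene was called at 2-fold or more. The plain ratio of parental over resistant level is given with its exact 95% counting interval. The libraries held 257192597 and 243549866 gene reads. All 6 epithelial markers examined were expressed in both libraries, with a summed level of 14105 in HCC827 and 5609 in ZDR3. The epithelial adhesion genes CDH1 (E-cadherin), at 1271 and 146 (-3.11), and EPCAM, at 527 and 62.4 (-3.06), differed most, followed by the keratins KRT19 (-1.74) and KRT18 (-1.58). The leukocyte markers summed to 159 in HCC827 and 321 in ZDR3, nearly all of it CD68, a lysosomal protein, at 155 and 320 (1.04). CD14 had 268 and 28 reads (-1.26) and CSF1R 261 and 105 (-0.68). The fibroblast markers summed to 9.60 and 1.998, most of it COL1A1 with 1308 and 242 reads (-1.88). CD3D, CD3E and MS4A1 of the 10 leukocyte markers and COL3A1, THY1 and POSTN of the 10 fibroblast markers had no reads in either library. The count of 0 allows up to 3 reads per library. The part of these markers in the differences of the 36 genes was not tested.

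The resistant library was the lower one for all 36 genes. The 2-fold limit was passed downward by 24 of them and upward by 0. Across all 13777 expressed genes, 9.68% were at least 2-fold lower, 10.6% as much higher, and 52.2% had a log2 ratio below 0. Among the 7140 expressed genes whose parental level lay within the range of the 36, 9.4% were at least 2-fold lower. The median log2 ratio of the 36 was -1.09, with quartiles of -1.30 and -0.92, against -0.03 over all expressed genes. In plain ratios the median gene was 2.13-fold lower, and the summed level of the set went from 10838 to 4424. The set took 0.602% of parental and 0.250% of resistant gene reads. In bulk RNA, fewer cells in G2 and mitosis and less of each transcript per cell cannot be told apart. Each gene had at least 2231 reads in each library, so the counting intervals reached at most 5.30% to either side, and all 36 intervals lay above a ratio of 1. The spread between cultures is unknown.

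**Figure D2:**
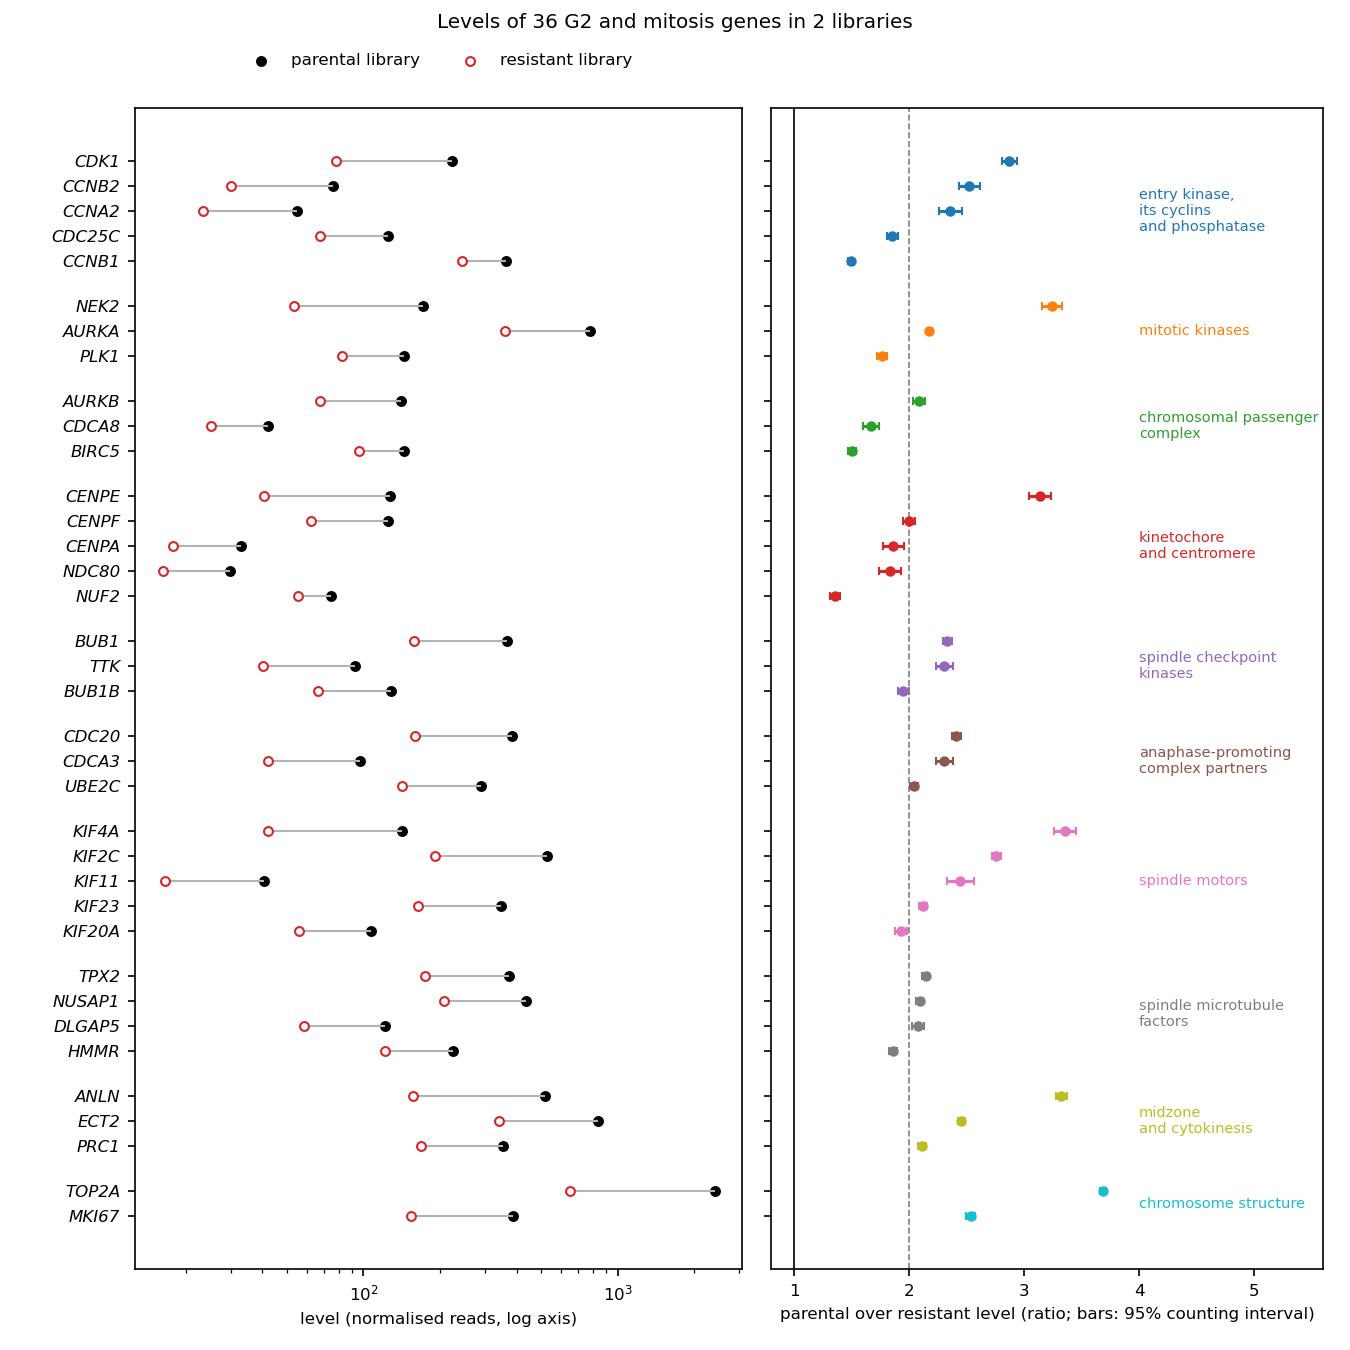
Left, level of each of the 36 genes in the parental (filled) and the resistant (open) library in normalised reads on a log axis, grouped by role. Right, ratio of parental over resistant level with its 95% counting interval; the solid line marks 1 and the dashed line 2, and ratios run from 1.36 for NUF2 to 3.69 for TOP2A.

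The kinase that starts mitosis and its cyclins did not differ by a single factor. CDK1 stood at 223 in HCC827 and 77.8 in ZDR3, which is a log2 ratio of -1.51, and was 2.87-fold lower (2.81 to 2.93). CCNB2, a Golgi-associated cyclin B, stood at 75.9 and 30.1 (-1.31). CCNB1, the main mitotic cyclin, stood at 363 and 243 (-0.58). The ratio was 2.52 (2.43 to 2.61) for CCNB2 and 1.49 (1.47 to 1.51) for CCNB1, so the 2 B-type cyclins differed by far more than counting error. Per kilobase of the longest transcript, CCNB1 stood above CCNB2 in both libraries, at 167 against 30.3 in the parental and at 112 against 12.0 in the resistant library. CCNA2, the cyclin of S phase and G2, stood at 54.9 and 23.3 (-1.20). CDC25C, which activates CDK1 by dephosphorylation, stood at 125 and 67.3 (-0.88).

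The other mitotic kinases ranged from -1.68 to -0.81. NEK2, which separates centrosomes, stood at 172 in HCC827 and 53.1 in ZDR3 (-1.68) and was 3.24-fold lower (3.16 to 3.33). AURKA, the kinase of centrosome maturation and spindle poles, stood at 780 and 359 (-1.12). PLK1, which acts from mitotic entry to cytokinesis, stood at 145 and 82.2 (-0.81). AURKA and its activator TPX2 had close ratios of 2.18 (2.15 to 2.20) and 2.14 (2.11 to 2.18), whose intervals overlap.

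The chromosomal passenger complex, which corrects wrong attachments and guides cytokinesis, had smaller differences than most groups before the subtraction of chromosomal neighbours described below. Its kinase AURKB stood at 140 in HCC827 and 67.3 in ZDR3 (-1.05). Borealin (CDCA8) stood at 42.0 and 25.1 (-0.72) and was 1.67-fold lower (1.60 to 1.74), and survivin (BIRC5) stood at 144 and 95.7 (-0.59). Survivin was 1.51-fold lower (1.47 to 1.54). After that subtraction AURKB stood at -1.12, CDCA8 at -1.06 and BIRC5 at -1.03, against a median of -1.10 for the 36. The scaffold of the complex, INCENP, which is outside the set of 36, stood at 115 and 53.5 (-1.09), next to AURKB.

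Kinetochore and centromere genes were spread widely. Before subtraction of neighbours, 1 of 5 (20%) was at least 2-fold lower, against 9.68% of all expressed genes. CENPE, the kinesin that carries chromosomes to the spindle equator, stood at 127 in HCC827 and 40.6 in ZDR3 (-1.62) and was 3.14-fold lower (3.04 to 3.23). NUF2, a microtubule-binding subunit of the NDC80 complex, stood at 74.7 and 55.1 (-0.43), the smallest difference of the 36, and was 1.36-fold lower (1.32 to 1.40). Its direct partner NDC80 stood at 29.7 and 16.2 (-0.84) and was 1.83-fold lower (1.74 to 1.93). The other subunits of that complex, from outside the set, were SPC25 at 10.4 and 3.13 (-1.47) and SPC24 at 10.8 and 7.16 (-0.54). The 4 subunits of 1 complex thus ranged from -1.47 to -0.43. CENPF, a large kinetochore and nuclear matrix protein, stood at 125 and 62.4 (-0.99), and its ratio of 1.996 (1.94 to 2.05) straddled the 2-fold limit. CENPA, the histone H3 variant of centromeres, stood at 33.1 and 17.8 (-0.86), and its chaperone HJURP, outside the set, at 176 and 90.8 (-0.95). After subtraction of neighbours CENPE (-1.56), NDC80 (-1.14) and CENPA (-1.03) were past 2-fold, and CENPF (-0.88) and NUF2 (-0.44) were not.

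The spindle checkpoint kinases had similar ratios before subtraction of neighbours. With neighbours subtracted, TTK stood at -1.11, BUB1 at -0.78 and BUB1B at -0.73. BUB1 stood at 367 in HCC827 and 157 in ZDR3 (-1.22), TTK (MPS1) at 92.9 and 40.3 (-1.18) and BUB1B (BUBR1) at 129 and 66.0 (-0.95). The intervals of BUB1 (2.30 to 2.37) and TTK (2.23 to 2.38) overlap, and that of BUB1B (1.90 to 1.999) lies below both. The checkpoint protein BUB3, outside the set, stood at 172 and 170 (-0.02).

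Partners of the anaphase-promoting complex were each more than 2-fold lower before subtraction of neighbours, against 9.68% of all expressed genes. CDC20, its activator in metaphase, stood at 383 in HCC827 and 159 in ZDR3 (-1.26). UBE2C, the conjugating enzyme that primes its substrates, stood at 291 and 142 (-1.03), the smallest difference still past the 2-fold limit. CDCA3, an F-box-like protein that the complex degrades in G1, stood at 97.2 and 42.1 (-1.19). With neighbours subtracted, CDC20 (-1.35) and CDCA3 (-1.07) were still past 2-fold, and UBE2C (-0.81) was not.

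Of 5 spindle motors 4 (80%) were at least 2-fold lower before subtraction of neighbours, against 9.68% of all expressed genes. KIF4A, a chromokinesin of chromosome arms and the midzone, stood at 142 in HCC827 and 42.2 in ZDR3 (-1.72) and was 3.36-fold lower (3.26 to 3.46). Its transcript aligns to that of the intronless copy KIF4B at 95.3% identity, and KIF4B stood at 20.2 and 5.70, so the division of reads between them is uncertain. KIF2C, a microtubule depolymerase of centromeres, stood at 526 and 191 (-1.46). KIF11 (Eg5), which pushes spindle poles apart, stood at 40.6 and 16.6 (-1.24). KIF23, the motor of centralspindlin, stood at 348 and 164 (-1.08), and KIF20A, which brings the passenger complex to the midzone, at 107 and 55.8 (-0.93).

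Spindle microtubule factors had ratios close to one another before subtraction of neighbours. With neighbours subtracted they spread more, with DLGAP5 at -1.28, TPX2 at -1.11, HMMR at -1.08 and NUSAP1 at -0.75. TPX2, which nucleates spindle microtubules, stood at 373 in HCC827 and 174 in ZDR3 (-1.10). NUSAP1, a microtubule bundler, stood at 436 and 208 (-1.06), DLGAP5 (HURP), a stabiliser of kinetochore fibres, at 121 and 58.4 (-1.04), and HMMR at 225 and 121 (-0.89).

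Genes of the midzone and of cytokinesis were all at least 2-fold lower before subtraction of neighbours, against 9.68% of all expressed genes. ANLN (anillin), the scaffold of the contractile ring, stood at 518 in HCC827 and 156 in ZDR3 (-1.73) and was 3.33-fold lower (3.27 to 3.38). ECT2, the exchange factor that activates RhoA for furrowing, stood at 840 and 342 (-1.29). PRC1, which crosslinks antiparallel midzone microtubules, stood at 355 and 168 (-1.08). RACGAP1, the partner of KIF23 in centralspindlin and outside the set, stood at 591 and 241 (-1.29). ECT2, which binds it, had the same log2 ratio, and KIF23 had -1.08. With neighbours subtracted, ANLN (-1.52) and ECT2 (-1.02) were still past 2-fold, and PRC1 (-0.82) was not.

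The genes of chromosome structure had some of the largest differences. TOP2A, the topoisomerase that untangles sister chromatids, stood at 2403 in HCC827 and 652 in ZDR3 (-1.88), the largest difference of the 36, and was 3.69-fold lower (3.66 to 3.71). Even so, 3.53% of all expressed genes had a log2 ratio as low as that of TOP2A. MKI67, the gene of the Ki-67 antigen that coats mitotic chromosomes, stood at 389 and 153 (-1.34).

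The order of levels among the genes was much the same in both libraries. Per kilobase of the longest GENCODE transcript, TOP2A (417), AURKA (347) and UBE2C (318) led in the parental library, and AURKA (160), UBE2C (156) and TOP2A (113) led in the resistant library. KIF11 was the lowest in both, at 8.35 and 3.42. The rank correlation of levels per kilobase between the libraries was 0.97 over the 36 genes, a description only, since the genes share libraries. Across the genes the log2 ratio had a correlation of -0.21 with the log2 parental level per kilobase and of -0.36 with the log2 transcript length.

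Reads of overlapping genes cannot be told apart, since the strand setting is not given in the sources used here. In GENCODE release 29, exons of 15 of the 36 overlap an exon of another gene, and 17 have such an overlap or a near-identical stretch of at least 200 bases elsewhere. CCNA2, for example, shares 250 bases with EXOSC9 on the opposite strand, and CDC20 has the processed pseudogene CDC20P1 at 96.3% identity. Among the 19 genes with neither, 14 were at least 2-fold lower and the median log2 ratio was -1.18, against 9.68% and -0.03 over all expressed genes.

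Position on the chromosome moved with the ratios. The 36 genes lie on 16 chromosomes. For each, the median log2 ratio of its expressed neighbours, the 20 nearest on either side, was taken, and these medians ran from -0.77 beside TOP2A to 0.44 beside BIRC5, although both genes lie on chromosome 17. Genes with lower neighbours had lower ratios themselves, with a Pearson correlation of 0.66 and a rank correlation of 0.58 over the 36, against 0.24 and 0.28 over 13458 expressed genes. Over 79 other G2 and mitosis genes the values were 0.42 and 0.34. Some of the 36 share neighbours, and the correlations are descriptions. After the neighbours' median was subtracted, all 36 remained below 0 and 26 were at least 2-fold lower, against 9.01% of 13458 expressed genes. The median was -1.10, against -0.001 over those genes, and the SD over the 36 was 0.26 in place of 0.34. TOP2A then stood at -1.11, close to the median. CENPE (-1.56), NEK2 (-1.52) and ANLN (-1.52) were lowest, and CCNB1 (-0.92) and BIRC5 (-1.03) came near the rest. NUF2 remained the highest, at -0.44. The part of chromosomal position in these ratios was not tested.

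**Figure D3:**
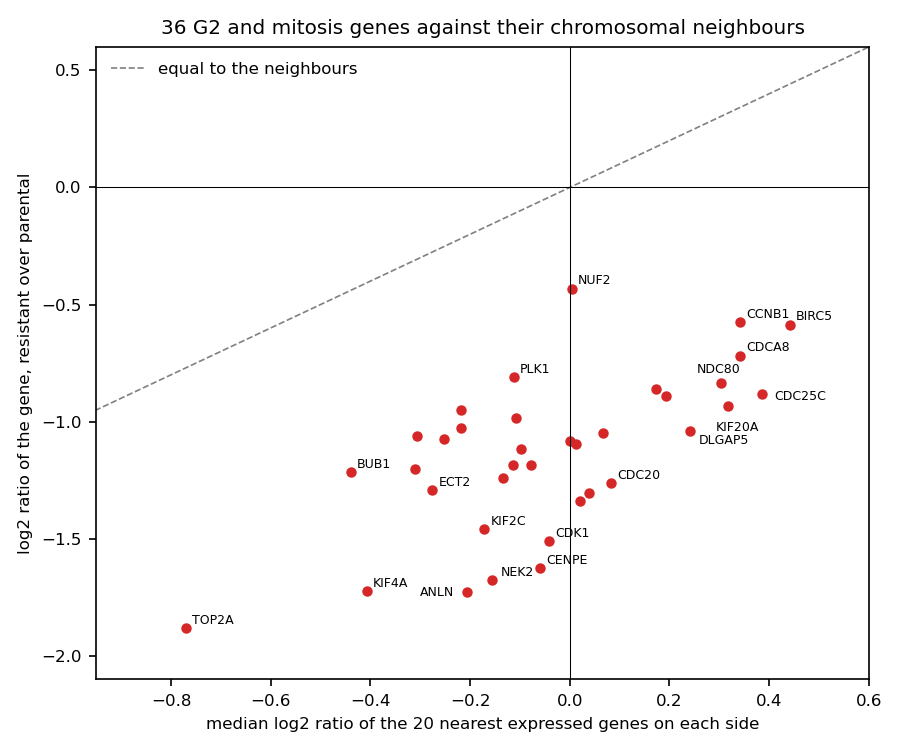
Log2 ratio, resistant over parental, of each of the 36 genes against the median log2 ratio of its expressed neighbours, the 20 nearest on either side; the dashed line marks equality and 19 genes are named. All 36 points lie below the line, from -0.44 (NUF2) to -1.56 (CENPE) under their neighbours.

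The rest of the G2 and mitosis programme was examined in a list of 79 further genes. Of these, 33 (41.8%) passed the 2-fold limit downward and 0 upward, against 9.68% and 10.6% of all expressed genes. A log2 ratio below 0 was found in 78 of them, against 52.2% of all expressed genes, and the median was -0.94. The largest differences were those of PSRC1, a regulator of spindle microtubules, at 158 in HCC827 and 33.2 in ZDR3 (-2.22), DEPDC1 at 208 and 65.0 (-1.66), the cytokinesis kinesin KIF14 at 38.0 and 12.3 (-1.55) and the centromere protein CENPI at 41.0 and 13.4 (-1.54). The single gene above 0 was CDC16, a core subunit of the anaphase-promoting complex, at 0.10. CDC16 and CDC27 also belong to the list of constitutive subunits of that complex given further below. Among regulators of CDK1, the phosphatase CDC25B stood at 634 and 262 (-1.27), and the inhibitory kinases WEE1 and PKMYT1 at 55.1 and 29.02 (-0.90) and at 61.1 and 29.8 (-1.01). Genes on both sides of the switch were therefore lower. Separase (ESPL1, -1.10) and its inhibitor securin (PTTG1, -1.03) were lower by like amounts.

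The G1/S and replication genes differed less. Of 59 expressed genes 6 passed the 2-fold limit downward and 2 upward, with a median log2 ratio of -0.46 and 43 below 0. The share at least 2-fold lower, 10.2%, is close to the 9.68% of all expressed genes. Among all expressed genes 10.6% were at least 2-fold higher and 52.2% were below 0. MCM2, a subunit of the replicative helicase, stood at 222 in both libraries (-0.002), and PCNA, the sliding clamp, at 65.9 and 44.7 (-0.55). The largest differences went both ways. POLA1, the catalytic subunit of DNA polymerase alpha, stood at 13.9 in HCC827 and 110 in ZDR3 (2.90), and the origin-firing kinase CDC7 at 50.4 and 150 (1.56). Both lie in neighbourhoods with a median of 0.92, and after its subtraction POLA1 was at 1.98 and CDC7 at 0.63, no longer past 2-fold. ATAD2 (-1.52) and RAD51AP1 (-1.51) were the lowest. The highest of the 36 G2 and mitosis genes, NUF2 at -0.43, lay near the median of this list. The difference between the lists was not tested, since there is 1 library per group.

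**Figure D4:**
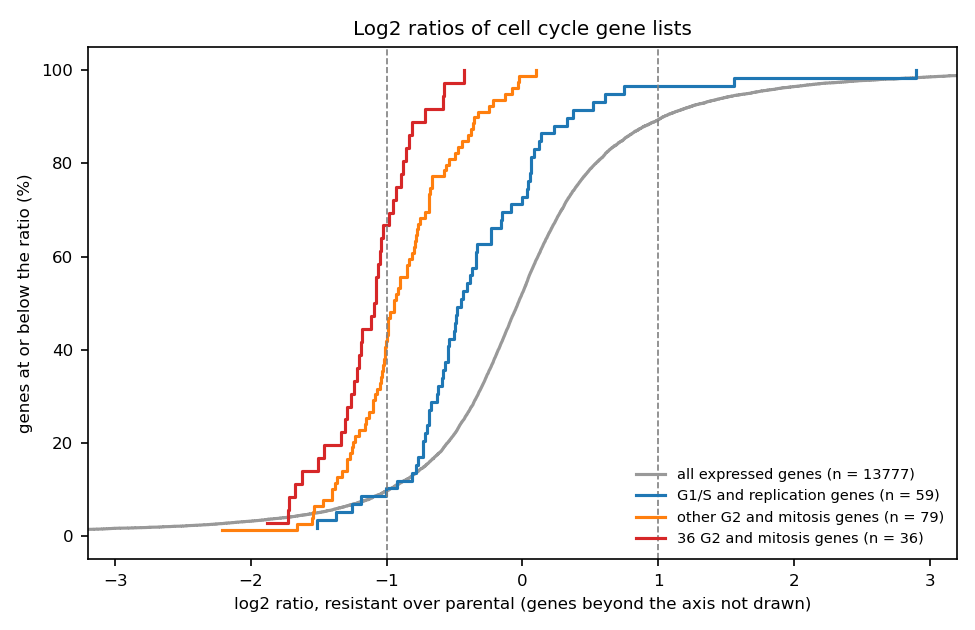
Share of genes at or below each log2 ratio, resistant over parental, for all 13777 expressed genes, 59 G1/S and replication genes, 79 other G2 and mitosis genes and the 36 genes described here; dashed lines mark 2-fold. The curve of the 36 genes ends at -0.43, and the medians are -0.03, -0.46, -0.94 and -1.09.

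Activators of late cell cycle genes differed among themselves. MYBL2, which joins MuvB in S phase, stood at 96.3 in HCC827 and 42.5 in ZDR3 (-1.16), and FOXM1 at 265 and 134 (-0.98). Both are themselves late or proliferation-linked genes, and both ratios lie within the range of the 36. The constant MuvB subunits LIN9 (-0.71), LIN37 (-0.15), LIN52 (-0.03), RBBP4 (0.33) and LIN54 (0.43) went both ways. Of the NF-Y subunits, NFYC was higher at 289 and 485 (0.74), in a neighbourhood with a median of 1.19, and NFYA (-0.32) and NFYB (-0.16) were slightly lower. Of the 10 genes 1 (10%) passed the 2-fold limit downward and 0 upward, against 9.68% and 10.6% of all expressed genes.

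Among the repressors of cell cycle genes reported here, E2F7, an atypical E2F that represses E2F targets, had the largest difference. It stood at 22.99 in HCC827 and 252 in ZDR3 (3.40), with a neighbourhood median of -0.01. Its relative E2F8 went the other way, at 28.3 and 13.3 (-1.04). RBL2 (p130), the pocket protein of DREAM in resting cells, stood at 273 and 180 (-0.60), E2F4 at 71.4 and 66.6 (-0.10) and RB1 at 33.1 and 34.3 (0.05). CDKN1A, a CDK inhibitor, stood at 12.5 and 8.10 (-0.57).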

How the data were processed

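Polyadenylated RNA of 1 parental and 1 resistant culture was sequenced on an Illumina instrument, per the labels' protocols. The submitters' processing notes name TopHat. Version, build, counter and strand setting were not given in the sources used here. In one table, the authors deposited 1 log2 value per gene and library, and its name says RPKM. On the linear scale the values of genes with reads are whole multiples of a step that all genes of a library share (0.00700 in HCC827, 0.00727 in ZDR3), which makes the values scaled reads without division by gene length. Of genes with 1 to 100000 reads (17090 and 17049), 100% were whole within 0.1 read. The 3504 and 3573 genes at 0.9 reads were set to 0. Reads above 100000 are less exact. The column ending in Prim was read as the parental line.

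A pseudocount of 1 and a minimum level of 1 in at least 1 library were used with numpy 2.4.6, pandas 2.3.3 and scipy 1.17.1. Counting intervals are exact binomial (Clopper-Pearson, 95%). Without molecular identifiers, reads may be copies of one molecule. No count model was fitted. On simulated libraries of the 20985 genes, with Poisson noise alone, 200 of 200 genes with a 4-fold change were called in the right direction. The changed genes were drawn from better expressed ones, and changes near 2-fold were not simulated. The members and gene lists were chosen with earlier results of these data known. All members are named with both levels; intervals are given for the 6 lowest, the 4 highest and compared pairs. The rule also names FOXM1, MYBL2, PCNA, MCM2 and, of each other list, the 4 expressed genes with the largest absolute log2 ratio. Further complex partners and regulators were named after their values were seen. Gene order, overlaps and transcript lengths come from GENCODE release 29, promoters from RefSeq (GRCh38.p14), and neither need be the authors' annotation.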

Additional observations from a re-analysis of the deposited data

How the results depend on the processing

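All 36 genes stayed below 0 with a pseudocount of 0 or 5, scaled to the total of gene reads, after centring on the median of expressed genes, with a trimmed mean of log ratios and after subtraction of neighbours. In these settings 23 to 26 genes were at least 2-fold lower, and after subtraction of neighbours they were partly other genes. The share of all expressed genes at least 2-fold lower ran from 6.28% (pseudocount of 5) to 11.3% (pseudocount of 0). The minimum level did not touch the 36. The median log2 ratio of the 36 was -1.05 with the trimmed mean of log ratios. Without the 17 genes that overlap or resemble another gene, an alternative chosen after seeing the data, it was -1.18, and 14 genes were at least 2-fold lower because fewer were counted. The median of the G1/S and replication genes was -0.36 with a pseudocount of 5 and -0.33 after subtraction of neighbours, and that of the other G2 and mitosis genes was -0.83 and -0.87. No scaling moved the median of all genes by more than 0.04. No paired analysis was possible because each group has 1 library. Depth did not limit these genes. The spread between cultures, which 1 library per group cannot give, does.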

Other observations

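Constitutive subunits of the anaphase-promoting complex, which are present throughout the cell cycle, differed little between the libraries. The list also holds FZR1, which is an activator and not a constitutive subunit. Of 14 expressed genes 0 were at least 2-fold lower or higher, against 9.68% and 10.6% of all expressed genes. Their median log2 ratio was -0.08. The activator of late mitosis and G1, FZR1 (CDH1), stood at 96.9 in HCC827 and 72.1 in ZDR3 (-0.42), against -1.26 for the metaphase activator CDC20. ANAPC13 was the highest, at 0.32, and CDC26 (-0.33) and ANAPC4 (-0.28) followed FZR1 at the lower end.

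The cohesin core, which holds sister chromatids together, had a median log2 ratio of -0.26 over 10 genes. STAG2 stood at 1115 in HCC827 and 518 in ZDR3 (-1.10), and its alternative partner STAG1 at 45.7 and 66.5 (0.53). RAD21, the subunit cut by separase, stood at 341 and 198 (-0.79), PDS5A at 171 and 106 (-0.69) and PDS5B at 25.1 and 16.5 (-0.58). The neighbourhood of STAG2 had a median of -0.43. After subtraction of neighbours STAG2 was at -0.68, no longer past 2-fold, RAD21 at -0.62, PDS5B at -0.47 and PDS5A at -0.21.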
